A study of Mus musculus with 10 samples.

Results

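Cell cycle genes were followed by phase in endothelial cells (ECs) of mouse bone: 19 genes of S phase, in which DNA is copied, and 21 genes of the G2 and M phases, in which a cell prepares for and carries out division. They were taken by name, as a fixed list. These 40 genes were counted among the 22828 genes kept from the tables. Cells were those with 500 to 6000 genes, under 25% mitochondrial transcripts and at least 2 transcripts of the endothelial genes Cdh5, Pecam1, Egfl7 and Kdr together. Of 46283 cells that met the quality limits, 45070 also met the endothelial count rule. Counts are unique molecular identifiers (UMIs), each standing for 1 captured transcript. Levels are CPM, the UMIs of a gene in summed cells scaled to a common total. The scaling was made anew for each set of sums tested together. A gene's level thus differs somewhat between the comparison of vessel types and those within a type.

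A resting endothelial cell lowers the expression of most of these genes and raises them when it re-enters the cycle. S-phase genes are switched on first, largely through E2F factors, and supply the replicative helicase (Mcm2 to Mcm7 with the loaders Cdc6 and Cdt1 and the helicase partner Gins2), the sliding clamp Pcna and deoxynucleotides (Tyms, Tk1, Rrm1, Rrm2, Dut). G2/M genes follow, under the DREAM and MuvB complexes that recognise CHR promoter elements, and supply Cdk1 with its cyclins, the mitotic kinases and the spindle. CCAAT, which is counted below as well, is a separate promoter element. In long bone, the metaphysis beside the growth plate holds growing capillaries of type H (metaphyseal ECs, mpECs). Remodelling capillaries of type R (rECs) run close to trabecular bone, sinusoids (bmECs, type L) fill the marrow, and arteries are lined by aECs.

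All cells came from femur and tibia of C57BL/6 mice carrying the Cdh5-mTnG reporter, in which Cdh5-driven expression labels ECs with nuclear GFP and membrane tomato, and were sorted for both colours after depletion of blood lineages. Juvenile mice were 3 weeks old and of both sexes, adult mice 12 weeks old and female, and aged mice 75 weeks old and female. In the juvenile comparison age therefore cannot be told apart from sex. The treated groups were 12-week-old mice given parathyroid hormone (PTH), which stimulates bone formation, or alendronate, a bisphosphonate that restrains bone resorption, and both were compared with the untreated adult group. Each group had 2 libraries of the 10x 3′ assay made from pooled animals in 1 experiment, so that the spread between libraries may be technical and does not measure variation between mice. The 276 gene symbols that begin with U had UMIs in the aged tables alone and were left out of all 10 libraries. No gene of the list has such a symbol, but other cycle genes that do were not counted. A difference in preparation or annotation between aged and other libraries cannot be told apart from age.

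The promoters of the list differ between the phases, which is why a few are shown here. RefSeq promoters on GRCm38.p6, from 250 bases before to 50 after the start, were found for 16 S-phase and 18 G2/M genes. In the sequences below, capitals mark the E2F letters (TTTCCCGC, TTTGGCGC, TTTCGCGC or TTTGCCGC), the CHR letters (TTTGAA or TTCGAA) and CCAAT, each searched on both strands, and overlapping matches are joined. Mcm5 (chr8:75109259-75109558, + strand) and Mcm6 (chr1:128359656-128359955, − strand) stand for the S-phase genes. Cdk1 (chr10:69352863-69353162, − strand), Ccnb2 (chr9:70421505-70421804, − strand) and Top2a (chr11:99024140-99024439, − strand) stand for the G2/M genes.
Mcm5: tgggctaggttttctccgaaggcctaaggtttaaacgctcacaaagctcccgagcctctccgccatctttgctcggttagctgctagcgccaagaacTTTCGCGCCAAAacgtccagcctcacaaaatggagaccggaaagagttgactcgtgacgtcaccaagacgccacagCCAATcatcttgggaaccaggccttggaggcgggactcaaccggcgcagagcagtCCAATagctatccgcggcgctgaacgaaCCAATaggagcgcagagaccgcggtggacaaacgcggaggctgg
Mcm6: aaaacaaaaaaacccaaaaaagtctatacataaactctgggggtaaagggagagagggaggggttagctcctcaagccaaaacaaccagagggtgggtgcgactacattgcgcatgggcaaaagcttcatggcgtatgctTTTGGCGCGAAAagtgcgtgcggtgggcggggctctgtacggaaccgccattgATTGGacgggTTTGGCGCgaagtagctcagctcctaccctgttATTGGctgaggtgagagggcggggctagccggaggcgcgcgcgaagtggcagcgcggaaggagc
Cdk1: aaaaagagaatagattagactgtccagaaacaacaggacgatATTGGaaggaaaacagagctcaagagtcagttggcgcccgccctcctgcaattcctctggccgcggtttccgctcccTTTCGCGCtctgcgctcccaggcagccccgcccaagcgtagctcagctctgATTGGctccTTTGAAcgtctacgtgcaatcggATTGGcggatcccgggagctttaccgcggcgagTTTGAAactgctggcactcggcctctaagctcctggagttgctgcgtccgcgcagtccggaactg
Ccnb2: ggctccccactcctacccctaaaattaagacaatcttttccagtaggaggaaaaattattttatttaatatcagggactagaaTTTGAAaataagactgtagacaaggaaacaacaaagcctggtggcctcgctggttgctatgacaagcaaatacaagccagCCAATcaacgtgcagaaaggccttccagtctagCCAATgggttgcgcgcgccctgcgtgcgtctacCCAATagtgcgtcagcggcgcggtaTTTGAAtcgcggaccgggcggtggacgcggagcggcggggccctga
Top2a: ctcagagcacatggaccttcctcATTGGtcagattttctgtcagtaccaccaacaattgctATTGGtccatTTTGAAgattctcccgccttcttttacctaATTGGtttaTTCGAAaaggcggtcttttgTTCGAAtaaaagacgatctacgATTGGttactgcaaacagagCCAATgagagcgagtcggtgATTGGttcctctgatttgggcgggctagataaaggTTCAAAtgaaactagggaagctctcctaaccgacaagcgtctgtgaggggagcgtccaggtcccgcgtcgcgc
The E2F letters were found in 6 of 16 S-phase genes (37.5%) and in 1 of 18 G2/M genes (5.56%), which was Cdk1, against 2.6% of 27025 genes with a promoter in the table. With the first T of each left out, these letters were found in 9 of 16 S-phase genes (56.2%) and in 4 of 18 G2/M genes (22.2%), against 10.9% of all genes. CHR and CCAAT together were found in 14 of 18 G2/M genes (77.8%) and in 2 of 16 S-phase genes (12.5%), against 8.61% of all genes. CCAAT alone was common in both phases, in 9 of 16 and 16 of 18 genes, and in 41.1% of all genes. A match describes the letters in this window and was not tested for binding. No promoter was given for Mcm4, Gins2, Ccne2, Tpx2, Aurkb and Ccna2.

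The 10 libraries held 10653583 to 28419323 UMIs, and the median cell that met the rule held 3116 to 5087.5 UMIs. At most 74 cell barcodes were shared by a pair of libraries. Unsupervised clustering placed 43492 cells in endothelial clusters and 1578 cells in clusters of other identity. The latter comprised 845 haematopoietic cells in a cluster led by Elane and Mpo and in one led by immunoglobulin genes, 284 erythroid cells, 406 cells named by mesenchymal markers but led by S100a8 and S100a9, and 43 mural cells. All of them met the endothelial count rule and were set aside for the comparisons. They made up 3.50% of cells and 8.57% of UMIs, but 36.1% of the S-phase and 54.8% of the G2/M UMIs. Of the G2/M UMIs, 32.9% and 25.2% lay in cells set aside in the juvenile libraries, 59.1% and 68.5% in adult, 59.8% and 60.1% in aged, 47.5% and 42.2% in PTH, and 75.7% and 74.0% in alendronate libraries. The juvenile libraries had the lowest of these shares and the alendronate libraries the highest, with no overlap with the adult libraries.

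**Figure D1:**
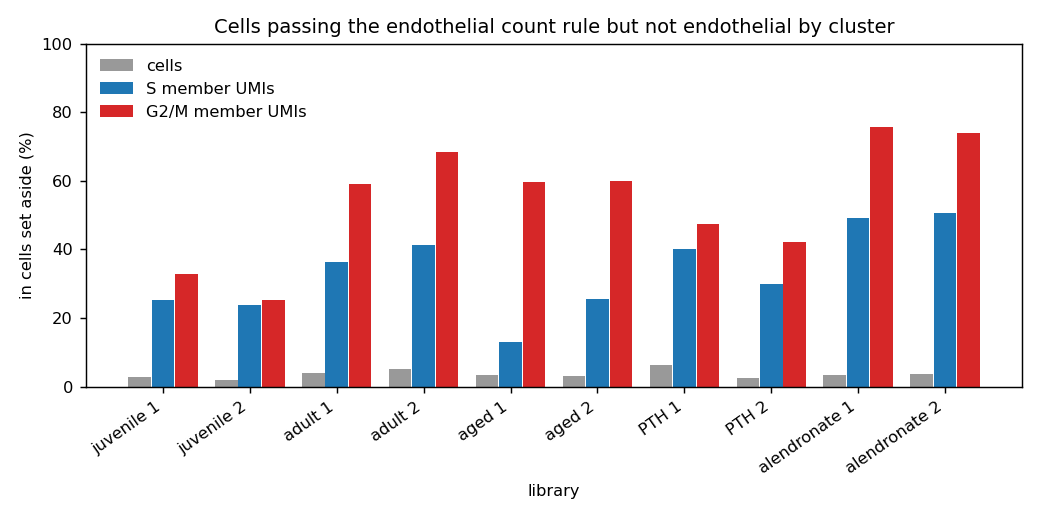
Percentage of cells (grey), of S-phase UMIs (blue) and of G2/M UMIs (red) of each library (x axis) that lay in cells meeting the endothelial count rule but set aside as not endothelial. In every library the red and blue bars stand above the grey bar, and the red bar reaches 75.7% in alendronate replicate 1 and 25.2% in juvenile replicate 2.

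ECs were then clustered after integration with 258 genes held out, namely the list itself, other cycle genes and genes correlated with them, so that the genes compared between vessel types did not make the types. Clusters were named by markers and are called bmEC-like (17850 cells, median 3758.5 UMIs), mpEC-like (13321 cells, 3622 UMIs), aEC-like (6683 cells, 3242 UMIs) and rEC-like (4762 cells, 2487.5 UMIs). A lymphatic cluster of 51 cells and 825 cells without a name were not compared. Some named clusters were led by genes of another kind: the leading genes included Igkc, Ccl2 or the interferon gene Rsad2 in mpEC-like clusters, and Igha, Fos or Cxcl10 in bmEC-like clusters. Of the rEC-like cells, 1884 lay in a cluster led by Tagln, Vwf and Lgals3, with Fmo2 alone of the rEC markers among its first 10 genes, and without integration a cluster led by many of the same genes was named lymphatic. A cluster of 365 cells was still led by Top2a, Birc5 and Cdk1. Its markers named it mpEC-like, and its cells were given the type whose markers fitted each best, which made 299 mpEC-like, 60 bmEC-like, 5 aEC-like and 1 rEC-like. Outside it, the same assignment returned the cluster's own type for 95.8% of bmEC-like cells and for 82.0% of cells named mpEC-like. This choice was made after the clusters were seen. Counts of called genes without this cluster are given for the tests that turn on it. Of its cells 99.5% held UMIs of 3 or more genes of the list. Leaving it out thus removes cells that hold these transcripts, and such counts are no independent check of the calls. The shares of cells were computed only with its cells so assigned. The types made up different shares of the ECs in the groups. The mpEC-like cells were 30.8% and 30.1% of ECs in juvenile, 28.6% and 28.3% in adult, 31.5% and 30.2% in aged, 41.0% and 41.6% in PTH, and 23.9% and 23.4% in alendronate libraries. The bmEC-like cells were 58.7% and 59.99%, 51.1% and 51.7%, 20.4% and 20.01%, 32.8% and 27.02%, and 37.7% and 37.1% in the same order. Values of all ECs therefore hold the types in different proportions, and the values within types stand beside them. These shares depended on how cells were named, and not in the aged libraries alone. Without integration, 19.3% and 19.65% of juvenile ECs were named mpEC-like, against 26.4% and 25.8% of adult ECs. At resolution 0.8 the mpEC-like shares were 22.1% and 21.5% in juvenile and 21.7% and 21.7% in adult libraries. Without integration, 0.946% and 1.39% of aged ECs were named mpEC-like, and 58.3% and 58.2% had no name. With each cell given a type by its own markers alone, 22.5% and 23.1% of aged ECs were mpEC-like.

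The genes of the list were found in the same cells to different degrees. For each gene, the share of its UMIs that lay in ECs with UMIs of at least 3 other genes of the list was computed. Such cells made up 12.5% to 15.7% of ECs and held 19.8% to 24.5% of all UMIs. For G2/M genes the share ran from 58.6% for Aurka, a spindle pole kinase, to 90.8% for Cenpf, a kinetochore protein, and was 89.4% for the topoisomerase Top2a. For S-phase genes it ran from 25.6% for Slbp, the binding protein of histone mRNAs, to 76.5% for Rrm2, the regulated subunit of ribonucleotide reductase. Fen1, with 6 UMIs in all ECs, was not placed in this order. Dut (28.7%), which removes dUTP, and Pcna (30.4%) lay near the low end, so that most of their transcripts came from cells without 3 other genes of the list.

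Between vessel types, mpEC-like cells had the highest levels of most G2/M genes and of some S-phase genes. Each type was tested against the mean of the other 3 in sums per library, by edgeR's quasi-likelihood method with adjustment over 12582 genes, and calls needed an adjusted p below 0.05 with a log2 fold change beyond 1. In mpEC-like cells 26 of 39 tested genes were higher, where 4.36% of all genes tested were called higher. These were 20 of 21 G2/M genes, with a median log2 fold change of 2.01, and 6 of 18 S-phase genes, with a median of 0.77, while the median over all genes tested lay at 0.01. Fen1 was not tested. Over all the fits described here, the median of all genes tested lay between -0.04 and 0.05.

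Top2a, which untangles sister chromatids, lay at 9.23, 26.7 and 78.4 CPM (lowest, median and highest of 10 libraries) in mpEC-like cells, and at 3.03, 6.45 and 14.2 CPM in bmEC-like cells. In aEC-like cells it lay at 1.26, 4.15 and 11.7 CPM and in rEC-like cells at 0.524, 2.83 and 30.1 CPM. Over all libraries the ranges overlapped, but within each library mpEC-like cells held the highest level in 10 of 10 libraries. The log2 fold change was 2.54 ± 0.24 (SE), adjusted p = 1.47e-11 by edgeR. Mki67, the proliferation marker that coats mitotic chromosomes, was higher by 2.15 ± 0.22 and was likewise highest in mpEC-like cells in all 10 libraries.

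Among the genes of entry into mitosis all 4 were called. Cdk1, the kinase that starts mitosis, lay at 11.8, 35.5 and 95.4 CPM in mpEC-like and at 4.41, 12.6 and 18.0 CPM in bmEC-like cells, and was higher by 2.00 ± 0.16 (edgeR adjusted p = 7.03e-13). Its cyclins Ccnb1, Ccnb2 and Ccna2 were higher by 1.77, 2.21 and 1.84. Of the chromosomal passenger complex, Birc5 (survivin) was called at 1.99 ± 0.24 and Cdca8 (borealin) at 1.78. Its kinase Aurkb is counted below among the mitotic kinases. All 8 spindle and kinetochore genes were called, from Nusap1, a microtubule bundling protein, at 1.44 ± 0.20, to Hmmr at 2.48. Without the cluster led by cycle genes the Nusap1 change reversed in sign. Of the 4 mitotic kinases and checkpoint genes, Bub1, Aurkb and Plk1 were called and Aurka was not: its log2 fold change was 0.89 ± 0.22, with an adjusted p of 0.00106 by edgeR. Cdc20, which activates the ligase that ends mitosis, was higher by 1.495 ± 0.188.

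Calls among the S-phase genes were spread over their roles. Of 9 genes of the helicase and its loading 3 were called, namely Mcm5 (1.32 ± 0.13), Gins2 (1.42) and Cdt1 (1.01). Mcm3 lay at 33.0, 50.2 and 61.1 CPM in mpEC-like and at 38.1, 43.2 and 55.3 CPM in bmEC-like cells, and its fold change of 0.59 ± 0.08 stayed under the limit. Of 5 genes of nucleotide supply Rrm2 (1.90 ± 0.22) and Tk1 (1.15), the salvage kinase for thymidine, were called. Tyms, which makes thymidylate, lay at 46.0, 73.6 and 133 CPM in mpEC-like and at 24.8, 36.8 and 59.99 CPM in bmEC-like cells. It was highest in mpEC-like cells in all 10 libraries, with a log2 fold change of 0.85 ± 0.06. Of the cyclins E, which drive entry into S phase, Ccne1 was called (1.35) and Ccne2 was not (0.40 ± 0.19). Gins2 shares 67.3% of its exonic bases with Gse1 on the opposite strand, and whether the counting used strand is not given in the sources used here.

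Some S-phase genes were not highest in mpEC-like cells. Dut lay at 22.4, 60.3 and 67.9 CPM in bmEC-like and at 17.5, 42.4 and 58.4 CPM in mpEC-like cells, and bmEC-like cells held its highest level in 8 of 10 libraries. Slbp lay at 15.9, 22.1 and 27.1 CPM in bmEC-like and at 16.5, 18.9 and 25.1 CPM in mpEC-like cells, with bmEC-like cells highest in 7 libraries. Pcna and Mcm6 were highest in rEC-like cells in 5 libraries each. Pcna differed little between types, with a log2 fold change of 0.26 ± 0.07 in mpEC-like cells.

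**Figure D2:**
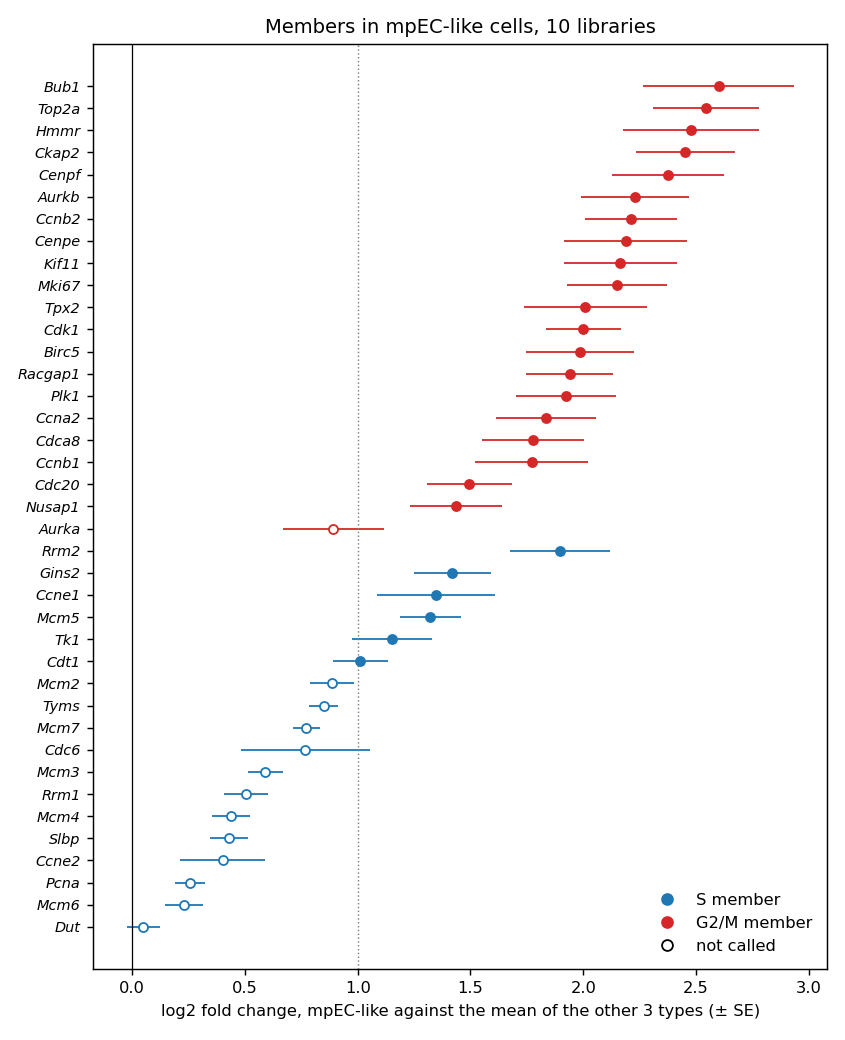
Log2 fold change (x axis, points with SE bars) of 39 genes (y axis) in mpEC-like cells against the mean of the other 3 types over 10 libraries, with S-phase genes in blue and G2/M genes in red, and open circles for genes that were not called. The G2/M genes lie between 0.89 (Aurka) and 2.60 (Bub1) and the S-phase genes between 0.05 (Dut) and 1.90 (Rrm2), and the dotted line marks the limit of 1.

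Cdc6, which loads the helicase at origins, had a pattern of its own, with its highest level in rEC-like cells in 7 of 10 libraries and in mpEC-like cells in the other 3. It was chosen for description here after its values were seen. It lay in rEC-like cells at 4.4 and 0 CPM in juvenile, 12.3 and 3.82 in adult, 4.195 and 3.05 in aged, 6.14 and 2.29 in PTH and 9.76 and 7.12 CPM in alendronate libraries. Its median was 4.30 CPM there, against 2.18 in mpEC-like, 0.782 in bmEC-like and 0.535 CPM in aEC-like cells. The log2 fold change in rEC-like cells was 2.65 ± 0.34 (edgeR adjusted p = 2.66e-08), where 6.98% of all genes were called higher. Of its 80 UMIs in rEC-like cells 3.75% lay in cells with 3 other genes of the list, while in mpEC-like cells 89.8% of its 137 UMIs did. For the other S-phase genes with UMIs in rEC-like cells this share ran from 8.16% for Pcna to 46.4% for Rrm2.

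The other types had fewer calls, and their number changed with the cells and libraries used. In bmEC-like cells 5 genes were lower (Cdc6, Ccnb1, Cdc20, Cenpf, Cenpe), where 9.12% of all genes were called lower, and DESeq2 called 2. In aEC-like cells 10 genes were lower (Tk1, Cdc6, Mki67, Cdk1, Ccna2, Bub1, Kif11, Racgap1, Ckap2, Hmmr), where 6.19% of all genes were. The bmEC-like count was 3 and 1 without juvenile replicates 1 and 2, 10 and 8 without adult replicates 1 and 2, and 8 without aged replicate 2 or without alendronate replicate 1. The aEC-like count was 6 and 5 without juvenile replicates 1 and 2, 6 without adult replicate 1 or without aged replicate 2, and 2 and 17 without alendronate replicates 1 and 2. In rEC-like cells Top2a was lower, by 1.42 on the log2 scale (SE 0.49), where 6.51% of all genes were, and the 2 calls in rEC-like cells became 4 without alendronate replicate 1. At resolution 0.8, 1 gene was lower in bmEC-like cells (background 9.01%), and in rEC-like cells the 16 calls were 15 lower (background 7.38%) and 1 higher. Without integration 3 genes were lower in aEC-like cells (background 4.96%), and the 6 calls in rEC-like cells were 5 lower (background 9.02%) and 1 higher. With the cluster led by cycle genes left out, 5 genes were called in mpEC-like cells instead of 26 (background 3.61%), 1 in aEC-like cells instead of 10 and 1 in rEC-like cells instead of 2, and with that cluster kept whole as mpEC-like, 19 were lower in bmEC-like cells instead of 5 (background 9.49%). Most of the calls in mpEC-like and aEC-like cells were thus made only with those 365 cells included. Because that cluster was led by genes of the list, fewer calls without it do not tell whether the other cells differ between types. Of other cycle genes, taken as further lists, 28 of 38 of G2/M and 9 of 25 of S phase were higher in mpEC-like cells, and 2 of 18 histone genes were, beside the 4.36% of all genes.

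In sums of cells, fewer cells with these transcripts and less RNA per cell cannot be told apart, so cells were also counted. Each EC was thinned to 2000 UMIs, leaving out shallower cells, and a cell was counted when it held UMIs of at least 3 genes of a phase. In mpEC-like cells 10294 cells were deep enough, and 8915 of these held no UMI of a G2/M gene while 203 held 6 or more genes. In bmEC-like cells 13863 of 15131 cells held none and 36 held 6 or more. Intervals are 95% limits by the exact Clopper-Pearson method, which hold counting error alone.

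With 3 or more G2/M genes, juvenile mpEC-like cells reached 6.15% (63 of 1025, interval 4.76 to 7.80) and 7.65% (71 of 928, 6.02 to 9.55). The adult libraries had 2.71% (31 of 1145, 1.85 to 3.82) and 2.26% (24 of 1063, 1.45 to 3.34). Both juvenile intervals lay above both adult intervals. The aged libraries had 1.61% (10 of 623, 0.772 to 2.93) and 0.943% (6 of 636, 0.347 to 2.04). The PTH libraries had 2.89% (24 of 830, 1.86 to 4.27) and 2.11% (44 of 2084, 1.54 to 2.82), and the alendronate libraries 0.979% (10 of 1022, 0.470 to 1.79) and 1.49% (14 of 938, 0.818 to 2.49). Aged and alendronate libraries lay below both adult libraries, with intervals that overlapped theirs except between alendronate replicate 1 and adult replicate 1, and PTH libraries lay on both sides. Divided by the adult mean, the shares were 2.78 (SD 0.46 over pairs of libraries) in juvenile, 0.513 (SD 0.165) in aged, 1.01 (SD 0.212) in PTH and 0.498 (SD 0.132) in alendronate cells. With 2 libraries a group an exact two-sided permutation test cannot go below 0.333, and none was made. Without thinning, the mean shares were 8.39%, 2.84%, 1.86%, 2.98% and 1.67% in the same order of groups, juvenile, adult, aged, PTH and alendronate.

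For S-phase genes the same count in mpEC-like cells gave 10.2% and 9.70% in juvenile, 6.55% and 6.59% in adult, 2.73% and 3.46% in aged, 6.51% and 4.27% in PTH, and 3.91% and 3.52% in alendronate libraries. The juvenile libraries lay highest and the aged libraries lowest, the alendronate libraries lay below both adult libraries, and of the PTH libraries one lay close to the adult libraries and the other below them. In bmEC-like cells the G2/M shares stayed between 0.128% (aged) and 0.544% (alendronate) as group means, and the S-phase shares between 2.00% (PTH) and 2.64% (alendronate). In aEC-like cells the G2/M shares were at most 0.42% in a group, and the 2.00% in juvenile rEC-like cells was 2 of 100 cells.

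**Figure D3:**
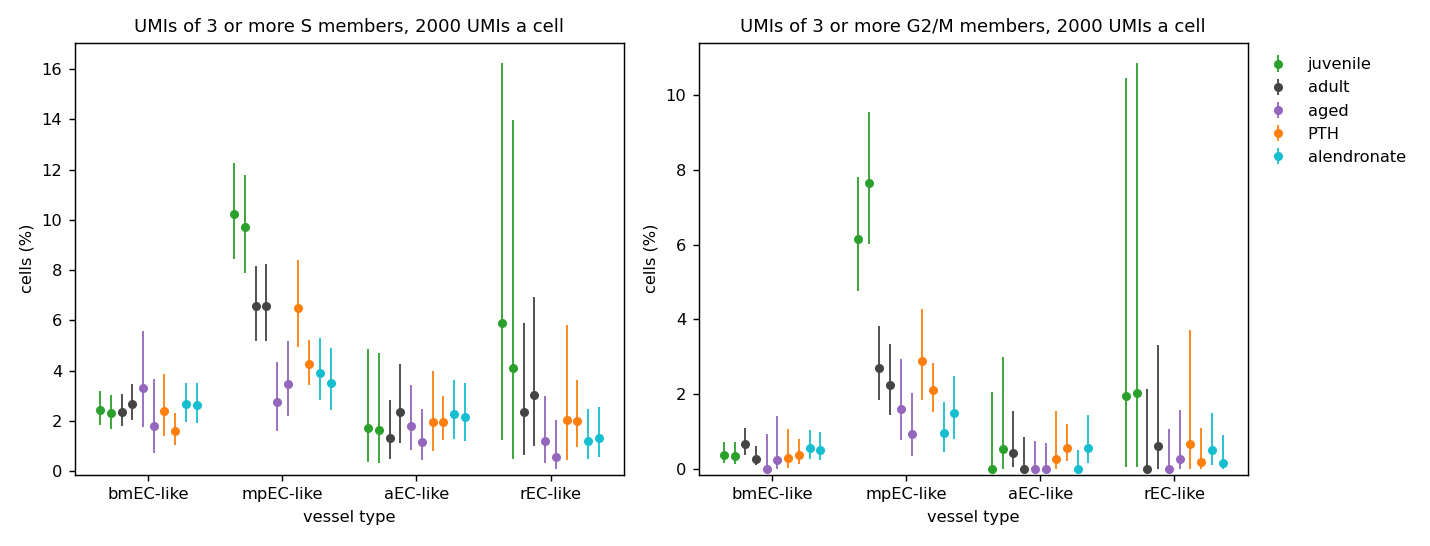
Percentage of cells (y axis) with UMIs of 3 or more S-phase (left) or G2/M genes (right) after thinning to 2000 UMIs, for each vessel type (x axis) and library (points, coloured by group, with exact 95% intervals). The juvenile mpEC-like points lie at 6.15% and 7.65% in the right panel, above the points of all other types and groups, and the wide intervals of rEC-like cells rest on few cells.

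In all, 388 ECs held 3 or more G2/M genes, of which 297 were mpEC-like, 64 bmEC-like, 14 aEC-like and 10 rEC-like, and 269 (69.3%) lay in the cluster led by cycle genes. In the juvenile libraries 87.5% and 86.6% of such cells were mpEC-like, while mpEC-like cells were 28.9% and 28.6% of the ECs deep enough. That cluster held 56.0% of the G2/M but 14.1% of the S-phase UMIs of ECs. The 388 cells had a median of 5979 UMIs, against 4047 in other ECs of at least 2000 UMIs. A UMI of the leukocyte gene Ptprc was seen in 0.258% of them and in 0.124% of the others. Within mpEC-like cells so counted, the mean number of G2/M UMIs per 2000 was 13 and 12.7 in juvenile, 13.1 and 13.3 in adult, 15.8 and 15.5 in aged, 14.8 and 13.2 in PTH, and 13.1 and 11.2 in alendronate libraries. These cells were chosen for holding such transcripts, so that the means are a description and do not tell the number of cells from the RNA per cell.

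In juvenile against adult ECs the G2/M genes rose together and the S-phase genes mostly did not. All ECs of a library were summed and fitted in 1 model with adjustment over 15297 genes, and a gene was called at an adjusted p under 0.05. Of 39 genes 25 were higher, where 21% of all genes were called higher, and edgeR called none lower (the same 25 genes had an unadjusted p under 0.05, and DESeq2 called 24 higher and none lower). These were all 21 G2/M genes, by 0.73 to 1.34 (median 1.01), and Ccne1, Rrm2, Tyms and Tk1 of 18 S-phase genes (median 0.15). Of the 9 genes of the helicase and its loading none was called. The summed S-phase level of ECs was 423 and 416 CPM in juvenile and 372 and 392 CPM in adult libraries, and the summed G2/M level 247 and 296 against 149 and 120 CPM.

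Top2a lay at 29.8 and 30.4 CPM in juvenile and at 13.5 and 12.5 CPM in adult ECs, a rise of 1.21 ± 0.12 (edgeR adjusted p = 1.87e-08). Mki67 lay at 8.85 and 11.5 against 6.78 and 5.37 CPM, a rise of 0.73 ± 0.16. Plk1, the polo kinase of mitosis, lay at 6.38 and 9.19 against 3.64 and 2.44 CPM (1.34 ± 0.20). In none of these did the groups overlap, and Plk1 was named from genes without overlap. Cenpe, the kinetochore motor, rose by 1.31 ± 0.20 and Kif11, the motor that separates the spindle poles, by 1.28 ± 0.25. Ccne1 lay at 3.22 and 3.80 against 1.91 and 1.22 CPM (1.15 ± 0.27), Rrm2 at 12.4 and 15.9 against 6.78 and 8.61 CPM (0.88 ± 0.14) and Tyms at 84.1 and 76.97 against 52.5 and 49.9 CPM (0.65 ± 0.05). By contrast, Dut lay at 52.2 and 51.4 against 51.6 and 53.4 CPM. When all cells of the count rule were summed, with those set aside, 4 genes were higher (background 20.5%) and 1 lower, and Mki67 fell by 0.03 on the log2 scale. Marker UMIs of blood cells moved in both directions. The 8 erythroid markers summed to 554 and 1258 CPM in juvenile and 278 and 352 CPM in adult ECs, and the 5 megakaryocyte markers to 165 and 168 against 65.9 and 74.0 CPM, so that both were higher in juvenile ECs, as the G2/M genes were. The 16 haematopoietic markers were lower, at 465.5 and 464.8 against 935 and 965 CPM. The part of these markers in the results was not tested. Most of the haematopoietic sum was Srgn (447 and 451 against 838 and 854 CPM), while the defining leukocyte marker Ptprc lay at 0.0578 and 0 against 0.479 and 0.349 CPM.

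Within mpEC-like cells the juvenile difference covered more of the list. Of 39 genes 32 were higher, where 15.9% of 12704 genes were called higher, among them all 21 G2/M genes (median 1.31) and 11 of 18 S-phase genes (median 0.36). All 5 genes of nucleotide supply and both cyclins E were among these, and 3 of 9 genes of the helicase and its loading. Top2a lay at 76.4 and 80.2 against 26.7 and 28.2 CPM (1.51 ± 0.12), and Mki67 at 21.5 and 29.0 against 12.5 and 11.6 CPM (1.06 ± 0.18). Cdca8 lay at 35.9 and 40.5 against 13.1 and 11.4 CPM (1.64 ± 0.16), Plk1 rose by 1.67 ± 0.24 and Cenpe by 1.61 ± 0.23. Ccne1 lay at 6.78 and 7.64 against 2.12 and 1.57 CPM (1.94 ± 0.35), Ccne2 at 4.89 and 4.01 against 1.77 and 1.76 CPM (1.32 ± 0.41), and Rrm2 at 31.4 and 38.6 against 12.9 and 15.7 CPM (1.30 ± 0.16, edgeR adjusted p = 6.81e-09). Every juvenile value of these lay above both adult values, and all but Top2a and Mki67 were named from genes without overlap. Without the cluster led by cycle genes 17 of 36 genes were higher (background 15.3%). Markers of blood cells in these mpEC-like sums differed as well. The megakaryocyte markers summed to 117 and 107 CPM in juvenile against 61.5 and 64.3 CPM in adult. The erythroid markers summed to 256 and 1550 against 215 and 258 CPM, and the haematopoietic markers to 357 and 381 against 882 and 890 CPM. Most of the haematopoietic sum was Srgn (339.5 and 370.8 against 783.9 and 791.5 CPM). The part of these markers in the values of the list was not tested.

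In bmEC-like cells few genes of the list were higher. Of 38 genes 2 were higher, where 18.6% of 13604 genes were called higher, and 7 lower, where 18.5% were. The share of the list that was higher lay below that of all genes, and the share that was lower lay near it. Tyms lay at 57.6 and 52.6 against 39.2 and 35.7 CPM (0.56 ± 0.09), and Cdk1 at 17.3 and 16.1 against 13.2 and 10.8 CPM (0.47 ± 0.15). Rrm1, the large subunit of ribonucleotide reductase, lay at 17.1 and 17.8 against 27.01 and 26.1 CPM (-0.61 ± 0.11), Tk1 at 17.2 and 14.5 against 22.5 and 21.9 CPM (-0.49 ± 0.13), Cdca8 at 3.35 and 2.26 against 5.60 and 4.73 CPM (-0.88 ± 0.27) and Birc5 at 8.58 and 6.66 against 11.5 and 9.94 CPM (-0.49 ± 0.18). Mcm2, Mcm3 and Dut were the other genes that fell. Top2a changed by -0.31 ± 0.27 and Mki67 by -0.50 ± 0.33, neither of which passed the test. Bub1 was not tested in bmEC-like cells. The count of 9 became 5 without juvenile replicate 2, and DESeq2 called 3. In these bmEC-like sums the haematopoietic markers lay at 511 and 502 CPM in juvenile against 965 and 980 CPM in adult, the megakaryocyte markers at 199.9 and 217 against 79.0 and 91.2 CPM, and the erythroid markers at 387 and 368 against 215 and 237 CPM. Their part in the values was not tested.

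The difference between the types was tested itself, as the juvenile effect in mpEC-like minus that in bmEC-like cells. Of 39 genes 28 had a higher juvenile effect in mpEC-like cells, where 5.95% of 13454 genes had. The difference was 2.53 ± 0.29 for Cdca8 (edgeR adjusted p = 6.56e-11), 1.84 ± 0.25 for Top2a (2.78e-08), 1.73 ± 0.21 for Birc5 (3.02e-10) and 1.32 ± 0.16 for Tk1 (8.61e-10). Mki67 differed by 1.57 ± 0.34 and Cdk1 by 0.78 ± 0.17, while Tyms (0.25 ± 0.11), which rose in both types, did not pass. DESeq2 called 1 gene (background 1.52%), and without the cluster led by cycle genes 8 were called (background 5.19%), and with it kept whole as mpEC-like 16 were. The count was 16 without adult replicate 1 and 17 without adult replicate 2.

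**Figure D4:**
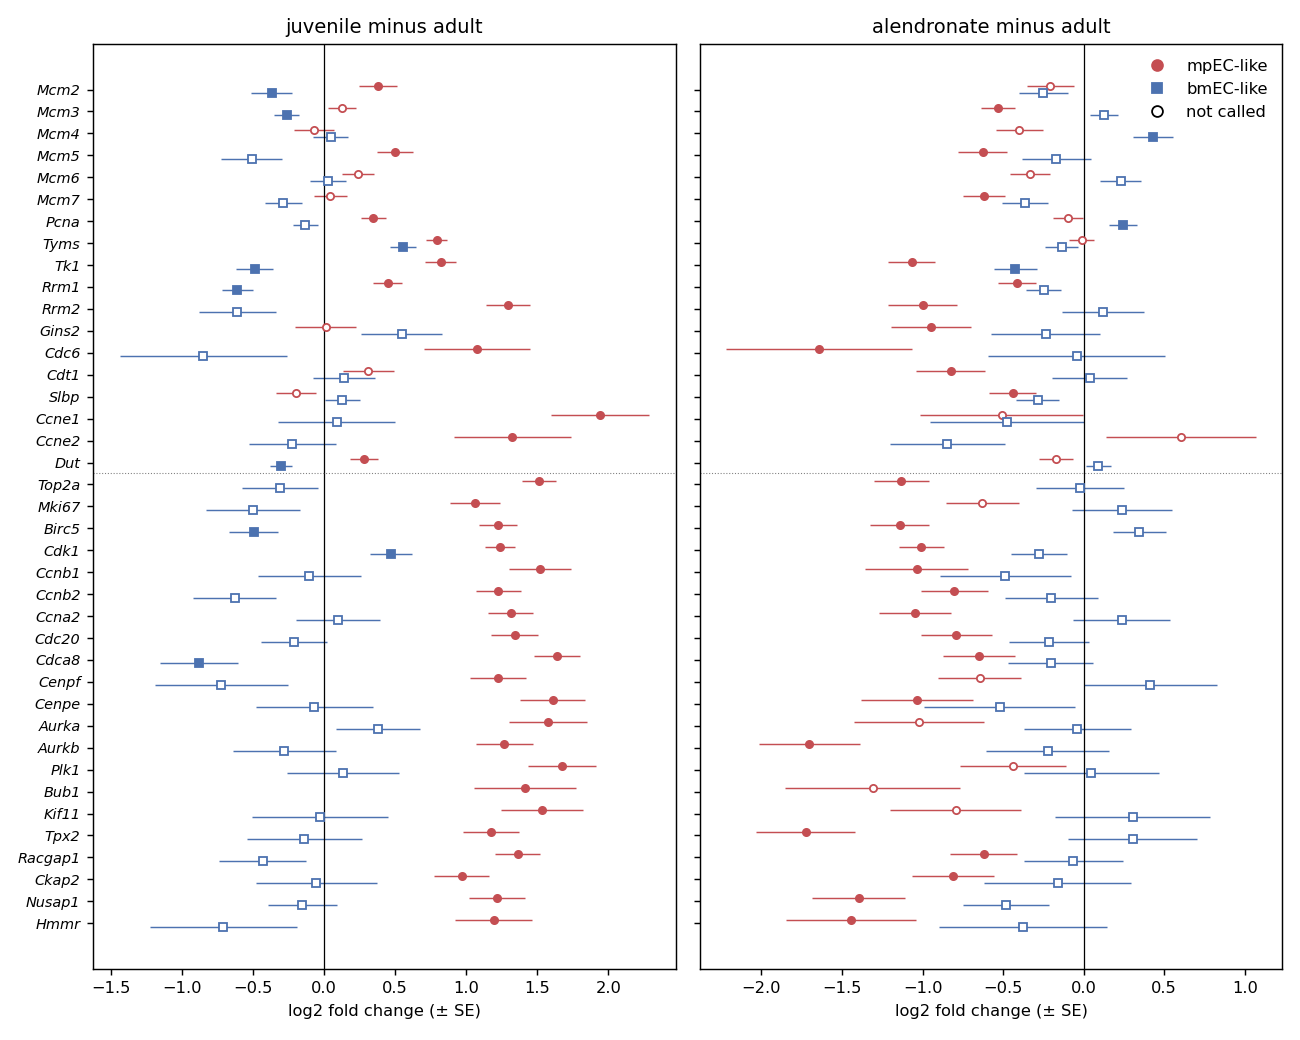
Log2 fold change (x axis, points with SE bars) of each gene (y axis, S-phase genes above the dotted line) in mpEC-like cells (red circles) and bmEC-like cells (blue squares), for juvenile minus adult (left) and alendronate minus adult (right), with open symbols for genes not called. On the left most red points lie right of 0 and the blue points around it, as for Top2a at 1.51 and -0.31, and on the right most red points lie left of 0, as for Top2a at -1.13 and -0.02.

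aEC-like and rEC-like cells held few transcripts of the list, and 27 and 21 genes could be tested there. In juvenile aEC-like cells edgeR called none (1 gene had an unadjusted p under 0.05, and DESeq2 called none), where 7.30% of 11277 genes were called higher. In juvenile rEC-like cells 3 genes were higher, where 1.44% of 10210 genes were. Cdk1 lay at 22.5 and 79.3 against 6.12 and 6.37 CPM, Rrm2 at 13.5 and 52.9 against 2.45 and 6.37 CPM, and Tk1 at 13.5 and 57.3 against 3.67 and 8.92 CPM. Juvenile replicate 2 was the higher in each, its summed G2/M level was 535 CPM against 93.1 CPM in replicate 1, and without it none of the 3 was called, nor without adult replicate 1, without the cluster led by cycle genes or by DESeq2. Top2a in these cells lay at 18.0 and 30.8 against 2.45 and 6.37 CPM and did not pass the test.

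In aged against adult ECs most genes of the list were lower, in a comparison in which many genes moved. Of 39 genes 29 were lower and 2 higher, where 36.5% of all genes were called lower and 37.3% higher. Lower were 16 of 18 S-phase genes (median -0.61) and 13 of 21 G2/M genes (median -0.88). Gins2 lay at 1.52 and 1.78 against 4.37 and 5.92 CPM (-1.63 ± 0.22), Dut at 18.5 and 17.6 against 51.6 and 53.4 CPM (-1.54 ± 0.07, edgeR adjusted p = 4.8e-15) and Rrm2 at 3.05 and 3.42 against 6.78 and 8.61 CPM (-1.24 ± 0.19). Birc5 lay at 4.57 and 4.86 against 17.4 and 17.1 CPM (-1.87 ± 0.18), Ccnb1 at 1.66 and 1.05 against 5.71 and 3.48 CPM (-1.77 ± 0.29) and Cdk1 at 6.09 and 5.92 against 21.1 and 17.4 CPM (-1.68 ± 0.13). These genes were named from those whose libraries did not overlap, so that each aged value lay below both adult values. Mki67 went the other way, at 10.7 and 10.8 against 6.78 and 5.37 CPM (0.82 ± 0.16, edgeR adjusted p = 0.000101), as did Ccne2 (0.74 ± 0.23), while Top2a changed by -0.29 ± 0.14 and did not pass. Ccne2 shares 17.4% of its exonic bases with Ints8 on the opposite strand.

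The aged differences went with transcript length. Across the 39 genes the Spearman correlation of the log2 fold change with the length of the longest annotated transcript was 0.578 (0.688 over G2/M and 0.406 over S-phase genes), and across all genes with a length 0.327. In the juvenile comparison it was 0.020, in PTH 0.154 and in alendronate 0.0971. Genes are not independent replicates and all values come from the same libraries, so these are descriptions with no p. The haematopoietic markers summed to 1806 and 1854 CPM in aged ECs against 935 and 965 CPM in adult, the highest of the 5 groups. Of these Cd74 made up 1068 and 1070 against 41.2 and 47.2 CPM, while Ptprc stayed at 0.554 and 1.02 CPM. S100a9 lay at 48.3 and 65.1 against 2.88 and 5.64 CPM. The megakaryocyte markers were lower, at 25.32 and 21.35 against 65.92 and 74.02 CPM. The erythroid markers were higher, at 611.8 and 363.5 against 277.5 and 351.9 CPM. The median share of mitochondrial transcripts per cell was 2.37% and 2.49% in aged libraries, against 1.16% and 1.17% in adult libraries and at most 1.43% in the other groups. Whether transcript length, mitochondrial share, blood cell RNA or library preparation had a part in the aged differences was not tested.

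**Figure D5:**
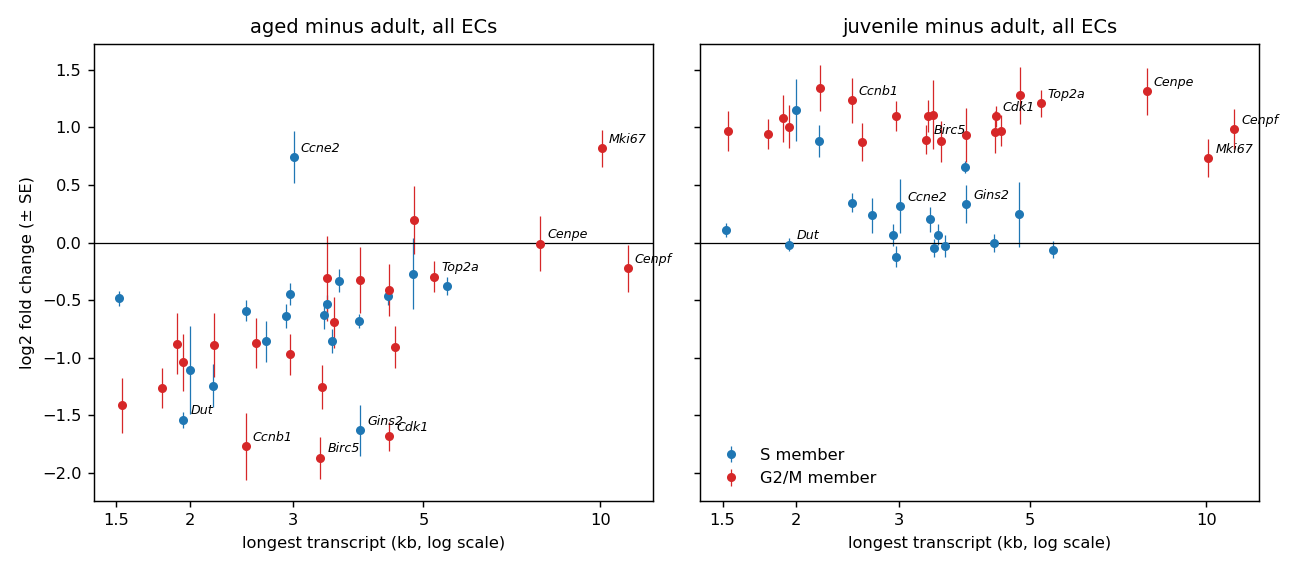
Log2 fold change (y axis, points with SE bars) of the S-phase genes (blue) and G2/M genes (red) against the length of the longest transcript (x axis, kb on a log scale) in all ECs, for aged minus adult (left) and juvenile minus adult (right). On the left Birc5 (-1.87) lies low and the long gene Mki67 (0.82) lies high, with a Spearman correlation of 0.578. On the right the correlation is 0.020.

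Within types, the share of the list that was lower in aged cells stood above that of all genes in mpEC-like cells and lay near it in the other 3 types. In mpEC-like cells 26 of 39 genes were lower, where 32.6% of all genes were, and Mki67 and Ccne2 were higher, where 33.2% were. Mki67 lay at 27.6 and 22.6 against 12.5 and 11.6 CPM (1.05 ± 0.18), and Ccne2 at 3.85 and 5.64 against 1.77 and 1.76 CPM (1.42 ± 0.41). Gins2 fell by 1.85 on the log2 scale (SE 0.29), Ccnb1 by 1.84 (SE 0.36), Birc5 by 1.57 (SE 0.19), Cdk1 by 1.51 (SE 0.15) and Dut by 1.32 (SE 0.12), and Top2a, at 26.6 and 23.4 against 26.7 and 28.2 CPM, did not pass the test. In bmEC-like cells 14 of 38 genes were lower, where 33.0% were, with Rrm2 at 0.760 and 0.540 against 3.84 and 5.44 CPM (-2.79 ± 0.51), Birc5 at 1.27 and 2.97 against 11.5 and 9.94 CPM (-2.35 ± 0.31), Gins2 at 1.52 and 0.540 against 2.20 and 4.02 CPM (-1.54 ± 0.52), Dut at 21.3 and 20.5 against 60.3 and 59.1 CPM (-1.51 ± 0.11), and Ccnb1 (-2.19 ± 0.68) and Ccnb2 (-1.92 ± 0.48) with few UMIs. The haematopoietic markers lay at 2030 and 2178 CPM in aged against 882 and 890 CPM in adult mpEC-like sums. They lay at 975 and 947 against 965 and 980 CPM in bmEC-like sums. Most of the aged mpEC-like sum was Cd74 (1297 and 1410 against 46.34 and 31.77 CPM) and Srgn (640.3 and 646.8 against 783.9 and 791.5 CPM). Ptprc lay there at 0.2264 and 0.222 against 0.8582 and 0.3805 CPM. The part of these markers was not tested. In bmEC-like cells Top2a lay at 2.79 and 12.97 against 8.45 and 5.91 CPM and Mki67 at 3.04 and 9.73 against 5.05 and 2.84 CPM, and neither passed.

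Of the aEC-like genes 9 of 27 were lower in aged cells, where 29.8% of all genes were, with Dut at 15.5 and 14.5 against 27.9 and 34.4 CPM, Cdk1 at 1.32 and 0.944 against 7.45 and 6.25 CPM, and Rrm2, Cdt1, Birc5, Cdc20, Mcm6, Mcm7 and Tyms the others. Of the rEC-like genes 5 of 21 were lower (Dut, Mcm2, Tyms, Cdk1, Racgap1), where 24.0% of all genes were. Dut lay there at 18.6 and 18.7 against 58.7 and 36.9 CPM. Dut was thus lower in all 4 types and in both aged libraries of each. For aEC-like and rEC-like cells together, the 14 calls became 8 without adult replicate 1 or without aged replicate 2, and DESeq2 called 9. In the aEC-like sums the haematopoietic markers lay at 2946 and 2825 CPM in aged against 1008 and 1109 CPM in adult. In the rEC-like sums the erythroid markers lay at 1967 and 440.5 against 340.6 and 209.1 CPM. Megakaryocyte markers were lower in aged sums of both types. The part of these markers was not tested. As a difference between mpEC-like and bmEC-like cells, the aged effect was higher in mpEC-like cells for Rrm2 (1.86 ± 0.59) and Bub1, where 11% of all genes were, and lower for Tk1 (-0.87 ± 0.21), where 4.62% were. Aged mpEC-like sums held 699 and 697 cells and aged bmEC-like sums 452 and 462 cells.

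In alendronate-treated against untreated adult ECs 20 of 39 genes were lower and none higher, where 12.8% of all genes were called lower (28 genes had an unadjusted p under 0.05, and DESeq2 called 7 lower and none higher). Lower were 10 S-phase genes (median of 18, -0.31) and 10 G2/M genes (median of 21, -0.59). Tk1 lay at 12.8 and 12.6 against 21.2 and 23.1 CPM (-0.80 ± 0.09, edgeR adjusted p = 5.63e-07), Gins2 at 3.17 and 3.30 against 4.37 and 5.92 CPM (-0.66 ± 0.18), and Rrm2 at 5.18 and 5.01 against 6.78 and 8.61 CPM (-0.59 ± 0.16). Top2a lay at 6.497 and 9.48 against 13.5 and 12.5 CPM (-0.70 ± 0.14), Aurkb, the kinase of the passenger complex, at 2.11 and 1.92 against 3.59 and 4.46 CPM (-0.99 ± 0.23), Hmmr at 1.22 and 1.65 against 3.08 and 2.02 CPM (-0.84 ± 0.29) and Nusap1 at 4.28 and 4.85 against 9.58 and 5.86 CPM (-0.77 ± 0.21). Mki67, at 4.65 and 6.44 against 6.78 and 5.37 CPM, overlapped and did not pass. The count was 10 without adult replicate 1 and 11 without alendronate replicate 1. When cells set aside were summed with the ECs, 1 gene was lower (background 10.5%) and 1 higher, and Rrm2, Gins2 and Aurkb changed by 0.27, 0.06 and 0.04. Megakaryocyte markers were higher in alendronate ECs, at 110 and 100.3 against 65.9 and 74.0 CPM, while the erythroid markers (251 and 505 against 278 and 352 CPM) overlapped and the haematopoietic markers lay at 984 and 998 against 935 and 965 CPM. Their part was not tested.

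Within types, most genes that were lower after alendronate were found in mpEC-like cells. In mpEC-like cells 25 of 39 genes were lower, where 6.12% of all genes were, with 15 G2/M genes (median of 21, -1.02) and 10 S-phase genes (median of 18, -0.47). Tpx2, a spindle assembly factor, lay at 2.13 and 3.71 against 11.1 and 8.04 CPM (-1.73 ± 0.31, edgeR adjusted p = 5.4e-05), Aurkb at 2.52 and 2.47 against 7.77 and 8.63 CPM (-1.70 ± 0.32), and Hmmr at 1.75 and 2.47 against 7.41 and 3.92 CPM (-1.44 ± 0.40). Top2a lay at 9.51 and 15.7 against 26.7 and 28.2 CPM (-1.13 ± 0.17), Tk1 at 12.6 and 15.7 against 27.5 and 31.8 CPM (-1.07 ± 0.15), Rrm2 at 6.01 and 8.25 against 12.9 and 15.7 CPM (-1 ± 0.22) and Cdc6 at 0.582 and 0.825 against 1.77 and 2.75 CPM (-1.64 ± 0.58, adjusted p = 0.0466 by edgeR). In each of these both alendronate values lay below both adult values, and all but Top2a were named from genes without overlap. Mki67 changed by -0.63 ± 0.23 and did not pass. The count was 13 without adult replicate 1, 14 without alendronate replicate 1 and 10 by DESeq2, and 3 without the cluster led by cycle genes (background 5.68%). Erythroid markers were lower in these mpEC-like sums, at 156 and 152 against 215 and 258 CPM. The megakaryocyte markers were higher, at 79.9 and 72.2 against 61.5 and 64.3 CPM. The haematopoietic markers summed to 821 and 853 against 882 and 890 CPM. Most of that sum was Srgn, which was lower (708.2 and 718.2 against 783.9 and 791.5 CPM). By contrast, S100a8 (15.58 and 20.99 against 5.664 and 11.61 CPM) and S100a9 (13.56 and 19.22 against 3.089 and 4.757 CPM) were higher. The part of these markers in the values was not tested.

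In alendronate bmEC-like cells Mcm4 (24.3 and 18.9 against 16.1 and 15.97 CPM, 0.43 ± 0.13) and Pcna (52.2 and 48.7 against 42.4 and 42.8 CPM, 0.24 ± 0.09) were higher, where 10.1% of all genes were, and Tk1 was lower (-0.42 ± 0.13), where 7.89% were. Both shares of the list lay below those of all genes. The count of 3 became 1 without adult replicate 1, and 0 without adult replicate 2 or by DESeq2. It became 6 with the cluster led by cycle genes left out or kept whole as mpEC-like. Megakaryocyte markers in these bmEC-like sums lay at 172.5 and 156.5 CPM in alendronate against 79.0 and 91.2 CPM in adult libraries. The haematopoietic markers were higher as well, at 1094 and 1122 against 965.3 and 979.7 CPM. The erythroid markers were lower, at 146.2 and 123.2 against 215.1 and 236.7 CPM. The part of these markers in the values was not tested. Top2a changed by -0.02 ± 0.27 and Mki67 by 0.24 ± 0.31. The effect differed between the types for 7 genes, lower in mpEC-like cells (Birc5, Ccna2, Mcm3, Mcm4, Rrm2, Top2a, Tpx2), where 0.758% of all genes were. The differences were -1.49 ± 0.22 for Birc5 (edgeR adjusted p = 2.13e-06), -2.02 ± 0.49 for Tpx2 and -1.11 ± 0.29 for Top2a. The count was 4 without adult replicate 1, 3 without adult replicate 2 and 1 without alendronate replicate 1, and DESeq2 called none (7 genes had an unadjusted p under 0.05 there, and 18 with edgeR). It was 1 without the cluster led by cycle genes and 2 with that cluster kept whole as mpEC-like. In aEC-like cells Birc5 was higher, at 4.33 and 22.2 against 4.19 and 4.68 CPM, where 3.90% of all genes were higher, with 1 library overlapping the adult values. The high library, alendronate replicate 2, also stood apart in the erythroid markers, at 2059 CPM against 338 CPM in replicate 1 and 160 and 263 CPM in the adult aEC-like sums, and the part of these in the Birc5 value was not tested. Birc5 was not called without that library, without either adult replicate or without juvenile replicate 1. In rEC-like cells edgeR called none (1 gene at an unadjusted p under 0.05, none by DESeq2).

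In PTH-treated against untreated adult ECs 7 genes of the list were called. Of 39 genes 4 were higher, where 15% of all genes were, and 3 lower, where 14.5% were. In both directions the share of the list lay below that of all genes. Top2a lay at 21.1 and 17.3 against 13.5 and 12.5 CPM (0.52 ± 0.12, edgeR adjusted p = 0.00265), Cdk1 at 25.1 and 22.6 against 21.1 and 17.4 CPM (0.28 ± 0.10), Pcna at 64.0 and 57.6 against 47.4 and 51.7 CPM (0.28 ± 0.06), and Tyms rose by 0.15 ± 0.06. Slbp lay at 18.6 and 17.6 against 20.2 and 24.3 CPM (-0.31 ± 0.10), Tk1 at 18.8 and 17.8 against 21.2 and 23.1 CPM (-0.29 ± 0.09) and Dut fell by 0.24 on the log2 scale. Mki67 changed by 0.21 ± 0.17 and did not pass. The PTH ECs also held more mpEC-like cells, 41.0% and 41.6% against 28.6% and 28.3% in adult, and the part of this in the differences was not tested. The count was 4 without adult replicate 2 or without PTH replicate 2, and 3 by DESeq2. Erythroid markers were lower in PTH ECs, at 99 and 104 against 278 and 352 CPM, and their part was not tested. The G2/M genes had a median of 0.25 and the S-phase genes of -0.06. With cells set aside included, 11 genes were lower (background 12.6%), none higher, and Top2a fell by 0.20 and Cdk1 by 0.04 on the log2 scale.

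Within types, Ccnb1 was lower in PTH mpEC-like cells, at 8.20 and 3.81 against 12.4 and 6.27 CPM (-0.89 ± 0.29, edgeR adjusted p = 0.025), with overlapping libraries, where 8.52% of all genes were lower. Top2a there lay at 41.0 and 30.3 against 26.7 and 28.2 CPM (0.31 ± 0.13) and Mki67 at 14.4 and 10.3 against 12.5 and 11.6 CPM (-0.06 ± 0.19), and neither passed. In these mpEC-like sums the erythroid markers lay at 53.76 and 83.78 against 214.5 and 257.6 CPM. The megakaryocyte markers lay at 40.2 and 47.74 against 61.45 and 64.31 CPM. The haematopoietic markers lay at 687.3 and 696.1 against 881.5 and 890.1 CPM, most of which was Srgn. The part of these markers was not tested. In PTH bmEC-like cells edgeR called none, where 3.98% of all genes were called lower (6 genes had an unadjusted p under 0.05, and DESeq2 called none). In aEC-like and rEC-like cells edgeR likewise called none, with 3 and 2 genes at an unadjusted p under 0.05 and none by DESeq2. The 1 call over the 4 types became 3 without the cluster led by cycle genes and 5 with it kept whole as mpEC-like. The PTH effect was higher in mpEC-like than in bmEC-like cells for Rrm2 (1.23 ± 0.36), where 1.49% of all genes were. The aged and PTH differences between the types, 4 calls together, became 2 without either adult replicate and 7 without aged replicate 2. Without the cluster led by cycle genes edgeR called none of them (5 genes had an unadjusted p under 0.05 in each comparison), with it kept whole as mpEC-like 1 was called, and DESeq2 called none. The PTH, alendronate, juvenile and aged comparisons share the adult libraries.

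Other cycle genes, taken as further lists by phase, gave the following counts in all ECs. Of all genes tested there, 21% were higher and 21.9% lower in juvenile, 37.3% higher and 36.5% lower in aged, 15% higher and 14.5% lower in PTH, and 14.8% higher and 12.8% lower in alendronate ECs. Of 29 other S-phase genes 11 were higher and 2 lower in juvenile, 4 higher and 13 lower in aged, 2 higher and 2 lower in PTH and 9 lower in alendronate ECs. Of 41 other G2/M genes 33 were higher and 1 lower in juvenile, 4 higher and 22 lower in aged, 3 higher and 1 lower in PTH, and 1 higher and 10 lower in alendronate ECs. Of 31 histone genes tested, 3 were higher and 7 lower in juvenile, and 7 higher and 5 lower in aged ECs. In PTH ECs 3 were higher and 3 lower, and in alendronate ECs 6 were higher. The histone counts lay near or below the shares of all genes. How far the 3′ assay captures histone transcripts was not tested, so these counts are no measure of S phase. Fen1, the flap nuclease of the lagging strand, had 6 UMIs in ECs, and 78.8% of its exonic bases are overlapped by Tmem258 or Gm10143 on the opposite strand.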

How the data were processed

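The deposited files were 10 tables of UMI counts per cell barcode and gene, which the authors made from 10x 3′ reads with UMI-tools 1.1.2, STAR 2.7.10a and featureCounts 2.0.3 (Subread) on mm10, as far as the submitters' processing notes name them. Whether counting used strand is not given in the sources used here. Libraries were prepared from pooled animals in 1 experiment, and the 40 genes, the marker lists and the tests were chosen with earlier results of these data known.

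Cells were filtered as described in the results, and clustered in Seurat 5.3.0 (R 4.3.3), first without integration and then, for ECs, with CCA anchors, 2000 variable genes, 30 components and a resolution of 0.5, with 258 genes held out. Doublets were not removed in the reported values, and an alternative left out 1862 cells with the highest Scrublet scores (0.8% per 1000 cells, scanpy 1.11.5). The cluster led by cycle genes was split by markers, a choice made after the clusters were seen. Counts were summed per library, or per library and type with at least 20 cells, and tested with edgeR 4.0.16 (quasi-likelihood, TMM scaling, filterByExpr), with adjustment over all genes of a fit. Type tests and interactions had the library as a block. Levels per library are CPM scaled by the TMM factors of each fit, and summed levels are plain CPM. Shares and exact 95% intervals were computed with Python 3.11.15 and scipy 1.17.1.

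Named in each comparison were Mki67 and Top2a, and up to 3 called genes of each phase with the largest fold change among those whose libraries did not overlap, and genes outside this rule were named after their values were seen. For the type test the gene with most UMIs of each role was named. The scripts were tested on simulated counts. Alternatives were DESeq2 1.42.0, RLE factors, no filter on low counts, each library left out, the replicate number as a block, other resolutions, no integration, and other sets of cells. Libraries of the same number did not deviate together over all genes (correlations from -0.0163 to 0.0610) and were not treated as pairs. These correlations do not exclude a shared step of preparation.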

Additional observations from a re-analysis of the deposited data

Results flagged for a closer look

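The juvenile effect differed between mpEC-like and bmEC-like cells for 28 genes by the interaction term, all with the higher effect in mpEC-like cells, where 5.95% of all genes were called in this direction. DESeq2 called 1 of them higher, and edgeR 8 without the cluster led by cycle genes. The alendronate effect differed for 7 genes, all with the lower effect in mpEC-like cells, where 0.758% of all genes were called, and the count was 1 without that cluster and 0 by DESeq2 (7 genes at an unadjusted p under 0.05). The aged effect differed for 3 genes, higher for Rrm2 and Bub1, where 11% of all genes were called, and lower for Tk1, where 4.62% were, and the Bub1 value rests on very few UMIs. This share of the list lay near or below that of all genes. The PTH effect differed for 1 gene, Rrm2, where 1.49% of all genes were called higher. Neither the aged nor the PTH calls were made by DESeq2 (3 and 1 genes at an unadjusted p under 0.05) or by edgeR without that cluster (5 genes at an unadjusted p under 0.05 in each). Outside the comparisons, cells that met the endothelial count rule but were set aside held 54.8% of the G2/M UMIs and 36.1% of the S-phase UMIs.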

How the results depend on the processing

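Counts of called genes are given as higher and lower together. With DESeq2 they were 1 for the juvenile interaction, 0 for the aged and PTH interactions together, 0 for the alendronate interaction, 2 in the bmEC-like type test, 3 for juvenile bmEC-like cells, 9 and 0 for aged and juvenile aEC-like and rEC-like cells together, 3 and 7 for PTH and alendronate in all ECs, 0 and 10 for alendronate in bmEC-like and mpEC-like cells, 0 for alendronate in aEC-like and rEC-like cells, and 0 for PTH over the types. With all cells of the count rule, counts in all ECs were 5 for juvenile, 11 for PTH and 2 for alendronate. There the log2 fold changes of Aurkb (0.0436), Gins2 (0.0613) and Rrm2 (0.27) after alendronate, of Cdk1 (-0.043), Mki67 (-0.37) and Top2a (-0.20) after PTH and of Mki67 in juvenile cells (-0.0305) reversed. The ratios to adult of the summed G2/M level were then 1.09 (juvenile), 0.828 (PTH) and 0.984 (alendronate), and of the S-phase level 0.944 (juvenile), 0.633 (aged) and 1.05 (alendronate).

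With the cluster led by cycle genes kept as mpEC-like, counts were 16, 1 and 2 for the juvenile, the aged and PTH and the alendronate interactions, 19 in the bmEC-like type test, 0 for juvenile aEC-like and rEC-like cells, 6 for alendronate bmEC-like cells and 5 for PTH over the types. Without that cluster they were 8, 0 and 1 for the interactions, 5, 1 and 1 in the mpEC-like, aEC-like and rEC-like type tests, 17 and 3 for juvenile and alendronate mpEC-like cells, 0 for juvenile aEC-like and rEC-like cells, 6 for alendronate bmEC-like cells and 3 for PTH over the types, and Nusap1 reversed to -0.078 in the mpEC-like type test. With no filter on low counts they were 5 for juvenile aEC-like and rEC-like cells, 4 and 11 for PTH and alendronate in all ECs and 2 for PTH over the types. Without integration they were 3 and 6 in the aEC-like and rEC-like type tests, 23 for aged bmEC-like cells, 0 for juvenile aEC-like and rEC-like cells and 5 for PTH over the types, Top2a reversed to -1.61 in aged bmEC-like cells, and aged mpEC-like and aEC-like sums were too small for a value. At resolution 0.3 they were 4 for the alendronate interaction and 2 for PTH over the types, and at resolution 0.8 they were 1 and 16 in the bmEC-like and rEC-like type tests, 0 for juvenile aEC-like and rEC-like cells and 5 for PTH over the types. Without cells with a Ptprc UMI the PTH count over the types was 3, and without doublets it was 2, with 4 for the alendronate interaction. The causes of these changes were not tested.

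With the replicate number as a block, counts in all ECs were 25, 31, 7 and 21 for juvenile, aged, PTH and alendronate. The PTH count over the types was then 2. Same-numbered libraries were not treated as pairs in the reported values.

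With each library left out, counts ranged from 24 to 25 (juvenile), 26 to 34 (aged), 4 to 8 (PTH) and 10 to 23 (alendronate) in all ECs, from 27 to 32, 24 to 28 and 13 to 27 (juvenile, aged, alendronate) in mpEC-like cells, from 5 to 9, 12 to 18 and 0 to 4 in bmEC-like cells, from 0 to 6, 8 to 14 and 0 to 7 in aEC-like and rEC-like cells, and from 1 to 3 for PTH over the types. Type tests ranged from 24 to 27 (mpEC-like), 1 to 10 (bmEC-like), 2 to 17 (aEC-like) and 2 to 4 (rEC-like), and interactions from 16 to 28 (juvenile), 2 to 7 (aged and PTH) and 1 to 10 (alendronate). Ratios to adult of the mpEC-like G2/M share ranged from 2.48 to 3.08 (juvenile), 0.38 to 0.647 (aged), 0.85 to 1.16 (PTH) and 0.394 to 0.601 (alendronate), and of the mpEC-like to the bmEC-like share from 6.35 to 8.93. Ratios of the summed S-phase level ranged from 1.07 to 1.13, 0.779 to 0.82, 0.996 to 1.09 and 0.848 to 0.893, and of the G2/M level from 1.82 to 2.26, 0.644 to 0.8, 1.12 to 1.4 and 0.626 to 0.778, for juvenile, aged, PTH and alendronate. Without aged replicate 2, Top2a reversed to -1.38 in aged bmEC-like cells and to 1.28 in the aged interaction, and without aged replicate 1 these were 0.8341 and -1.116. Precision was limited by 2 libraries a group and by few UMIs of these genes in aEC-like and rEC-like cells.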
